A study of Mus musculus with 4 samples.

Results

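The genes described here are Foxp3 and 8 other forkhead genes, Foxp1, Foxp4, Foxo1, Foxo3, Foxo4, Foxm1, Foxk1 and Foxj3, in induced regulatory T (iTreg) cells. They were chosen by name, as rows whose gene symbol equals the member in both deposited gene tables. Of the 9 names, 8 had a row of their own; Foxm1 was listed only in a row joined with 4933413G19Rik, whose values stand for both genes together. The tables shared 22120 usable symbols, of which 10587 had a mean of at least 1 FPKM (fragments scaled to transcript length and library size) over the libraries and were tested. All 8 members with a row of their own and the joint row passed this filter.

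The study sequenced RNA from 4 libraries of C57BL/6 mouse cells, WT 1 and WT 2 and MSC KO 1 and MSC KO 2. Sorted naive T cells of either genotype had been cultured for 3 days under iTreg conditions, on plate-bound anti-CD3 and anti-CD28 at 1 µg/ml with TGF-beta at 2 ng/ml. Stimulation and TGF-beta were thus common to both groups, and no unstimulated or TGF-beta-free cells were analysed here. One table holds WT 1 with MSC KO 1 and the other WT 2 with MSC KO 2. Each difference was taken within a table, except in the fits with 1 library left out. The labels name no separate animals or cultures, so p-values measure only the spread between these libraries, which may be technical.

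Forkhead factors bind DNA through a shared winged-helix domain. Foxp3 is the lineage factor of regulatory T cells, is induced by TGF-beta and T cell receptor signals in naive CD4+ cells, and acts with partners that include its FOXP relatives and Runx1. Foxo1 and Foxo3 keep resting T cells quiescent, are sent out of the nucleus when Akt phosphorylates them, and take part in Foxp3 induction, whereas Foxm1 drives genes of the G2 and M phases in dividing cells. Msc encodes musculin, a basic helix-loop-helix repressor, a class of protein that binds E-boxes.

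The targeted gene went against the labels at a very low level. Msc stood at 0.0243 and 0.0178 FPKM in WT 1 and WT 2 and at 0.331 and 0.939 FPKM in MSC KO 1 and MSC KO 2. Which part of the gene was deleted is not given in the sources used here, so reads from outside it check nothing, and all directions below are those of the libraries labelled MSC KO. The estimated depth was 25500000 to 35700000 fragments per library. Among genes at 10 to 50 FPKM, the robust SD of the log2 ratio of replicate 2 to replicate 1 was 0.0803 in WT and 0.23 in the libraries labelled MSC KO. All 8 matched T cell markers of 9 were at or above 1 FPKM in each library, with summed levels of 1610 to 1750 FPKM. Of the markers of other cells, the B cell list summed to 6.95 to 7.25 FPKM in WT and 5.04 to 6.02 in MSC KO, with Cd79b alone at 1 FPKM or more and Pax5 at 0 in WT 1, WT 2 and MSC KO 2. The 5 matched myeloid markers of 6 summed to 1.68 to 1.92 FPKM in WT and 4.14 to 4.31 in MSC KO, with Cd68 alone at 1 FPKM or more and Csf1r at 0 in both MSC KO libraries. The NK list summed to 4.52 to 5.56 FPKM in WT and 1.73 to 2.78 in MSC KO, with Ncr1 at 0 in all 4 libraries. The mast cell list summed to 9.81 to 10.2 FPKM in WT and 2.47 to 14.9 in MSC KO, all of it Kit, with Cpa3, Fcer1a and Mcpt1 at 0 throughout. The pair of CD8 markers summed to 11.3 to 11.7 FPKM in WT and 9.13 to 19.8 in MSC KO, most of it Cd8b1. Cd8b1 was at 9.75 FPKM in each WT library and at 8.56 and 19.1 in MSC KO. Cd8a was lower in both tables, at 1.58 and 1.9 FPKM in WT and 0.571 and 0.658 in MSC KO. The 2 matched erythroid markers of 4 summed to at most 0.056 FPKM. The part of these cells in the results below was not tested.

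Promoter sequence is shown for Foxp3, which was farthest from WT, for Foxp1, its next relative in size of difference, and for Foxo1, the member that was higher in both MSC KO libraries. RefSeq (GRCm38.p6) promoter entries matched 6 of the 9 names, with 9 start sites among them. Each sequence is the 250 bases before a start site, 5′ to 3′ on the gene's strand, with E-boxes (CANNTG, which reads the same on both strands) in capitals. The 2 Foxp3 entries are chrX:7579426-7579675 and chrX:7580233-7580482 on the plus strand. The Foxp1 entry is chr6:99520994-99521243 on the minus strand, the first of its 3 start sites, and the Foxo1 entry is chr3:52268087-52268336 on the plus strand.
Foxp3 upstream start: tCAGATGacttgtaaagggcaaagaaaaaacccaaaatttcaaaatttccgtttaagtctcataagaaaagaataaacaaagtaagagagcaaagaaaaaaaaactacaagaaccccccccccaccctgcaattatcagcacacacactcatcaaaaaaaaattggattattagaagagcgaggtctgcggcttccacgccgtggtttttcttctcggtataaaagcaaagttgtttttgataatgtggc
Foxp3 downstream start: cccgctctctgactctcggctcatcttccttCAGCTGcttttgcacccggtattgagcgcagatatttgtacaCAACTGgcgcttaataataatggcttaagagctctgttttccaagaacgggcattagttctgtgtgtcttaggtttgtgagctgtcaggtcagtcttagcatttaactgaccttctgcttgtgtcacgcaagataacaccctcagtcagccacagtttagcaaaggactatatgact
Foxp1: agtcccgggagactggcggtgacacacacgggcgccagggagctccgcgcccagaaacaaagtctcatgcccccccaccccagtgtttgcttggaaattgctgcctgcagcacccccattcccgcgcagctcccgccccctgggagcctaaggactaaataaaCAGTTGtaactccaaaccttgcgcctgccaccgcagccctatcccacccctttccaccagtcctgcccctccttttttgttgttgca
Foxo1: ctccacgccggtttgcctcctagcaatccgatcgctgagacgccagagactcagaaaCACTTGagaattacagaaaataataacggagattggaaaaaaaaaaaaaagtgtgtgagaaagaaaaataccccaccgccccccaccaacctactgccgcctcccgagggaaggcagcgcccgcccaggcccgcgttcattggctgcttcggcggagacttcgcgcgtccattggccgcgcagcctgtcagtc
An E-box lay in 7 of the 9 members' promoters, against 66.2% of all 32851 promoters of the same length. The forkhead motif TGTTTAC, searched on both strands, was in none of the 9 and in 3.17% of all promoters, which says only that these letters are not in these windows. The downstream Foxp3 entry held 2 E-boxes and the upstream one 1, with a GC content of 46.0% and 37.6% against a median of 52.4% over all promoters.

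Foxp3 was the forkhead gene with the highest level in both WT libraries and one of the lowest members in both MSC KO libraries. Foxp3 (chromosome X, 7135687 to 7182546, mm9, the locus as the tables list it) stood at 62.8 FPKM in WT 1 and 66.0 in WT 2, whereas MSC KO 1 had 2.97 and MSC KO 2 had 7.05. The groups did not overlap, and the pair of MSC KO libraries differed 2.38-fold from each other where the WT pair differed 1.05-fold. Foxp3 was 21.2-fold lower in MSC KO 1 than in WT 1 (-95.3%) and 9.35-fold lower in MSC KO 2 than in WT 2 (-89.3%). On the log2(FPKM + 1) scale, on which a fold change of a low gene is understated, the mean difference was -3.53 ± 0.27 (SE, 2 libraries per group), with a 95% interval of -4.36 to -2.71.

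Adjusted over all genes, the Foxp3 difference missed the threshold of 0.05 (adjusted p = 0.115, limma with Benjamini-Hochberg adjustment over 10587 genes). It passed without the table as a block (adjusted p = 0.0471, limma), without MSC KO 1 (0.0053) and without MSC KO 2 (0.0039), and its adjusted p ran from 0.0039 to 0.516 over the 13 alternatives, with 0.516 without WT 1 and 0.444 without WT 2. With 1 library of a group left out, the spread among libraries comes from the pair of the other group, and the WT pair was the tighter one. Those fits, here and for the genes below, also had no table block. The lone library was thus compared with both libraries of the other group, across the tables. The Foxp3 difference itself ran from -4.04 to -3.02 over the 13 alternatives. In the authors' deposited tables Foxp3 was called in both, with q-values of 0.0118 and 0.0143, where the authors called 0.652% (first table) and 0.547% (second) of the rows with a symbol they tested. An exact permutation test of 2 libraries against 2 cannot go below p = 0.3333 and was not used.

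The Foxp3 levels rested on many fragments in each library. At a transcript of 3834 bp, the longest of 10 annotated for Foxp3, the levels correspond to about 6140 and 9030 fragments in WT 1 and WT 2 and 329 and 825 in MSC KO 1 and MSC KO 2. By mean difference Foxp3 was the 7th lowest of the 10587 genes, and by single table the 21st and the 16th lowest. In bulk RNA, fewer Foxp3+ cells and less Foxp3 RNA per cell cannot be told apart. The summed level of the matched T cell markers spanned 1610 to 1750 FPKM over all 4 libraries, and Cd4, the coreceptor of helper T cells, was at 173 and 189 FPKM in WT and 166 and 209 in MSC KO.

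**Figure D1:**
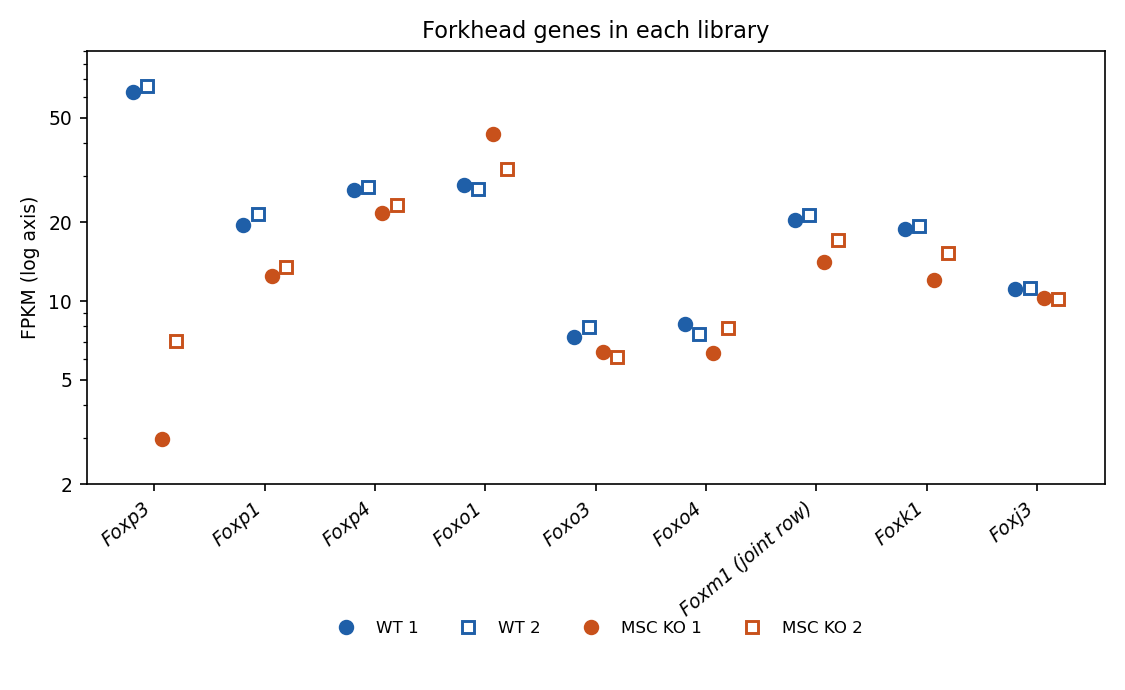
Level of each of the 9 forkhead entries in each library (FPKM, log axis), 1 point per library, with WT in blue and MSC KO in orange, filled circles for the first table and open squares for the second. The Foxp3 points lie at 62.8 and 66.0 FPKM for WT and at 2.97 and 7.05 for MSC KO, while the other entries lie within 6.11 to 43.5 FPKM in all 4 libraries.

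Foxp3 took a large share of all forkhead RNA in WT and a small one in MSC KO. The tables held 44 forkhead entries, and their summed level was 248 and 255 FPKM in WT 1 and WT 2 and 172 and 180 in MSC KO 1 and MSC KO 2. Foxp3 made up 25.4% and 25.9% of it in WT and 1.73% and 3.93% in MSC KO. Without Foxp3 the sums were 185 and 189 FPKM in WT and 169 and 173 in MSC KO, so the gap between the groups was mostly that of Foxp3. Among the 44 entries Foxp3 had rank 1 in both WT libraries, rank 13 for MSC KO 1 and rank 9 for MSC KO 2. The ratio of Foxp3 to Foxp1, a partner in its own subfamily, was 3.23 and 3.07 in WT and 0.237 and 0.522 in MSC KO. The ratio of Foxp3 to Foxo1 was 2.26 and 2.46 in WT and 0.0682 and 0.222 in MSC KO.

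The 2 other FOXP genes of the set were also lower in both MSC KO libraries, by far less than Foxp3. Foxp1 (chromosome 6, 98875335 to 99385339, mm9), which maintains naive T cell quiescence, was at 19.5 and 21.5 FPKM in WT and 12.5 and 13.5 in MSC KO. Both MSC KO values lay below both WT values, at -35.7% and -37.3%, or -0.60 and -0.63 on the log2(FPKM + 1) scale. The mean difference was -0.62 ± 0.09 (SE, 2 libraries per group; 95% interval -0.88 to -0.35; adjusted p = 0.14, limma). It passed the threshold without MSC KO 1 (adjusted p = 0.0407, limma) and without MSC KO 2 (0.0285), whereas without WT 1 or WT 2 the adjusted p was 0.604 and 0.609. In the authors' deposited tables Foxp1 had a q-value of 0.999 in each.

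Foxp4 (chromosome 17, 48004081 to 48061845, mm9), the remaining FOXP gene of the set, was at 26.6 and 27.2 FPKM in WT and 21.6 and 23.3 in MSC KO. The groups did not overlap, and the values were 18.7% and 14.2% lower in the 2 tables. The mean difference of -0.25 ± 0.09 had a 95% interval of -0.52 to 0.02 (adjusted p = 0.266, limma), and without MSC KO 2 it passed the threshold (0.0403). Without MSC KO 1 the adjusted p was 0.0811, and without WT 1 or WT 2 it was 0.74 and 0.768 (limma). Foxp1 and Foxp4 summed stood at 46.1 and 48.7 FPKM in WT and 34.2 and 36.8 in MSC KO.

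The FOXO genes differed in sign. Foxo1 (chromosome 3, 52072258 to 52154031, mm9) was the one member higher in both MSC KO libraries, at 27.8 and 26.8 FPKM in WT and 43.5 and 31.8 in MSC KO. The groups did not overlap, and the pair of MSC KO libraries stood farther apart (0.731-fold, replicate 2 over replicate 1) than the WT pair (0.964-fold). Foxo1 was 1.57-fold higher in MSC KO 1 than in WT 1 and 1.19-fold higher in MSC KO 2 than in WT 2, with a mean difference of 0.43 ± 0.14 (95% interval 0.02 to 0.85; adjusted p = 0.237, limma). Without MSC KO 2 the difference was 0.65 and passed the threshold (adjusted p = 0.0154, limma), and without MSC KO 1 it was 0.21 (adjusted p = 0.0782, limma). Without WT 1 or WT 2 the adjusted p was 0.734 and 0.762 (limma).

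Foxo3 (chromosome 10, 41901655 to 41996548, mm9) was at 7.3 and 7.94 FPKM in WT and 6.41 and 6.11 in MSC KO. Its groups did not overlap, and its difference of -0.25 ± 0.10 had a 95% interval of -0.56 to 0.06 (adjusted p = 0.304, limma). Foxo4 (chromosome X, 98449866 to 98456212, mm9), a FOXO gene under the same Akt control, was at 8.19 and 7.49 FPKM in WT and 6.34 and 7.86 in MSC KO. Its groups overlapped and its tables gave opposite signs, -0.33 and 0.06, with a mean of -0.13 ± 0.14 (95% interval -0.55 to 0.29; adjusted p = 0.627, limma). The ratio of Foxo1 to Foxo3 was 3.8 and 3.37 in WT and 6.79 and 5.2 in MSC KO. The FOXO sum was 43.2 and 42.2 FPKM in WT and 56.2 and 45.7 in MSC KO.

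The other members, Foxm1 in its joint row, Foxk1 and Foxj3, were lower in both tables. The joint row of Foxm1 and 4933413G19Rik (chromosome 6, 128313011 to 128335162, mm9) was at 20.4 and 21.3 FPKM in WT and 14.1 and 17.1 in MSC KO, with no overlap. Its difference was -0.40 ± 0.10 (95% interval -0.71 to -0.09; adjusted p = 0.199, limma), and how much of it belongs to Foxm1 cannot be told apart from the other gene. Foxk1 (chromosome 5, 142877450 to 142937969, mm9), a factor tied to nutrient signalling and glycolysis, was at 18.8 and 19.3 FPKM in WT and 12.0 and 15.3 in MSC KO, with no overlap. Its difference was -0.46 ± 0.12 (95% interval -0.81 to -0.11; adjusted p = 0.196, limma). Without MSC KO 2 both passed the threshold, the joint row at an adjusted p of 0.0238 and Foxk1 at 0.0187 (limma). With any of the other libraries left out neither passed, at adjusted p-values of 0.0682 to 0.728 for the joint row and 0.052 to 0.723 for Foxk1 (limma). Foxj3 (chromosome 4, 119212292 to 119301724, mm9), a FOXJ gene, was the least different, at 11.1 and 11.2 FPKM in WT and 10.3 and 10.2 in MSC KO. Its difference was -0.11 ± 0.09, with a 95% interval of -0.38 to 0.15 (adjusted p = 0.512, limma).

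**Figure D2:**
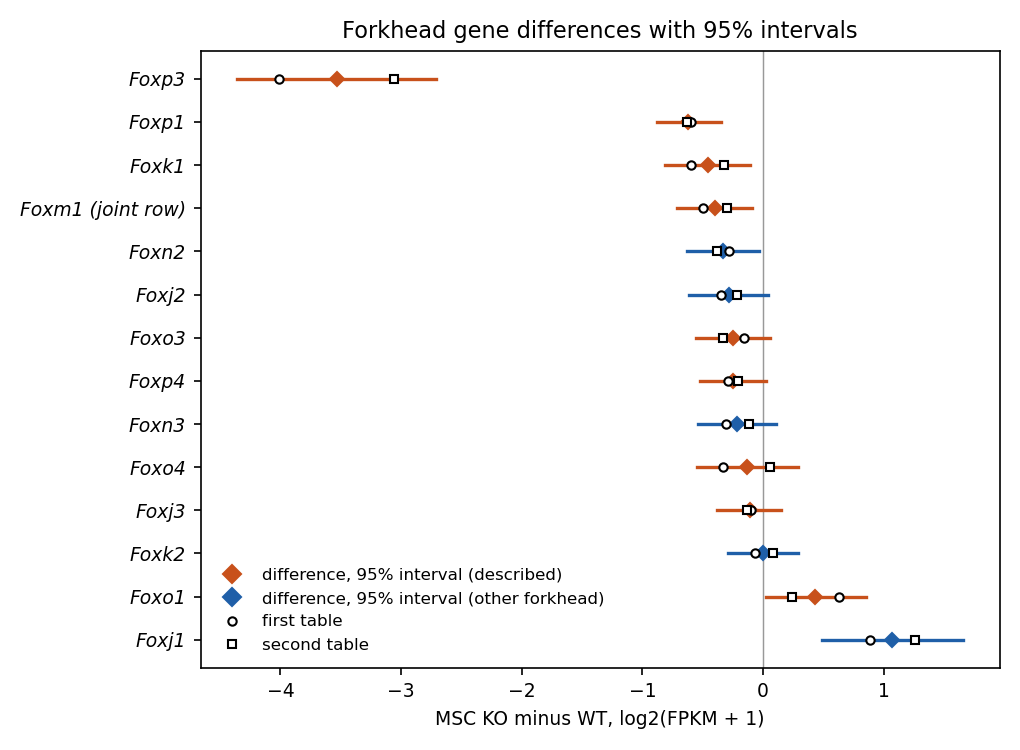
Mean difference of each of the 14 tested forkhead entries, MSC KO minus WT on the log2(FPKM + 1) scale (diamond), with its 95% interval from limma (line) and the value of each table (open circle and open square). Foxp3 at -3.53 is separate from all other entries, which lie between -0.62 and 1.07.

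As a group, the 8 members with a row of their own had 0 calls at an adjusted p under 0.05 (limma), where 0.00945% of all genes tested were called, 1 of 10587. At an unadjusted p under 0.05, 4 of the 8 were past it (limma), Foxp3, Foxp1 and Foxk1 lower and Foxo1 higher, against 20.4% of all genes. Of the 8, 6 were lower in both tables (37.5% of all genes), 1 was higher in both (31.2%) and Foxo4 was of opposite sign. Both MSC KO libraries lay below both WT libraries for 6 of the 8 (32.5% of all genes) and above them for 1 (26.6%). A difference of at least 1 on the log2(FPKM + 1) scale, 2-fold, was reached in both tables by Foxp3 downward (0.812% of all genes) and by none upward (1.32%). The median difference was -0.25 over the 8 and -0.25 over the 7 without Foxp3, beside -0.02 over all genes. Members share the same 4 libraries and are not replicates of one another.

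The order of levels was alike in the 2 libraries of a group except between some neighbours. In WT, Foxp3 came first, Foxo1 and Foxp4 next, the joint Foxm1 row and Foxp1 after them, then Foxk1, Foxj3, and Foxo3 and Foxo4 last. Within each of the pairs Foxo1 and Foxp4, Foxm1 and Foxp1, and Foxo3 and Foxo4 the order switched between WT 1 and WT 2, so those neighbours did not differ beyond the spread. In MSC KO, Foxo1 was first and Foxp4 second in both libraries, the joint row came next, and Foxp1 and Foxk1 exchanged places. Foxp3 was last of the 9 in MSC KO 1, and between Foxo4 and Foxo3 in MSC KO 2.

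**Figure D3:**
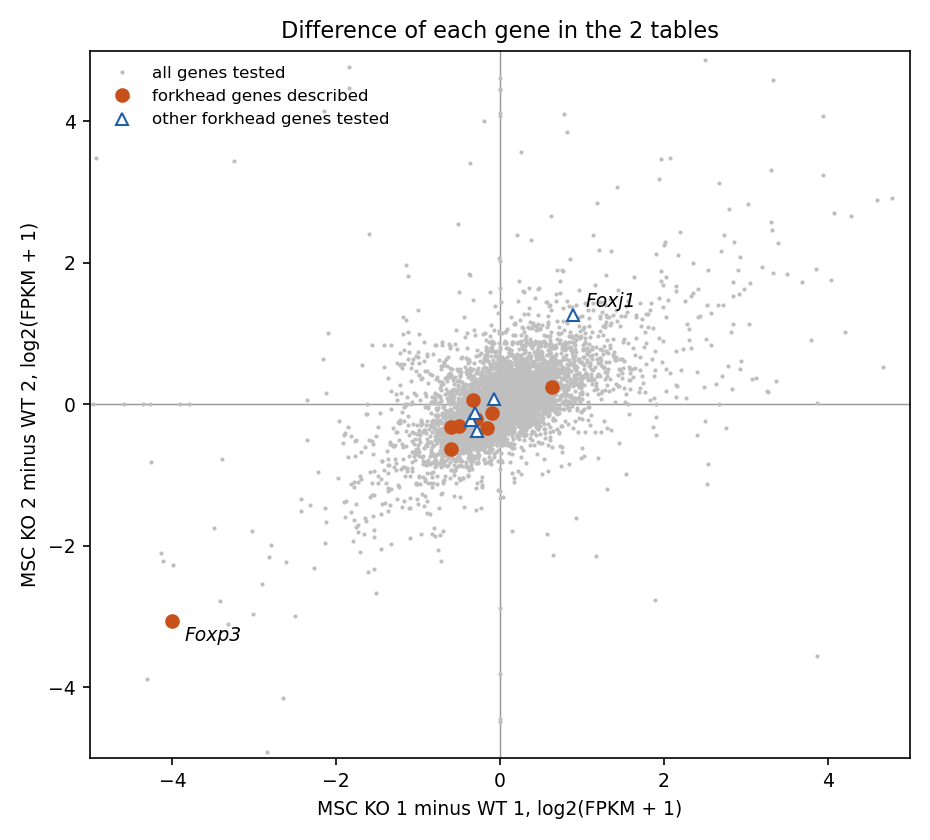
Difference of every gene tested in the first table (x axis) against the second (y axis), both on the log2(FPKM + 1) scale and drawn from -5 to 5, which leaves out 53 of 10587 genes. Foxp3 lies at -4.01 and -3.06, far from the other 8 forkhead entries (orange), whose mean differences lie between -0.62 and 0.43.

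Of the 35 other forkhead entries, 5 passed the filter. Foxj1, the master factor of motile cilia, was at 0.624 and 0.483 FPKM in WT and 2.0 and 2.56 in MSC KO, with a difference of 1.07 ± 0.19 (95% interval 0.49 to 1.66; adjusted p = 0.153, limma). It was below 1 FPKM in both WT libraries. Foxj1 passed the threshold without MSC KO 1 (adjusted p = 0.0239, limma) and without MSC KO 2 (0.0226), and not without WT 1 or WT 2 (0.602 and 0.605). Foxn2 was at 7.0 and 7.04 FPKM in WT and 5.61 and 5.17 in MSC KO, a difference of -0.33 ± 0.10. Foxj2 was at 5.11 FPKM in each WT library and at 3.79 and 4.26 in MSC KO, and Foxn3 at 6.02 and 6.69 in WT and 4.68 and 6.06 in MSC KO. Foxk2, the paralogue of Foxk1, was at 24.1 and 24.8 FPKM in WT and 22.8 and 26.1 in MSC KO, with a difference of 0.00 ± 0.10 and a 95% interval of -0.29 to 0.29, a sign that turned under other scalings. None of the 5 was called, where 0.00945% of all genes tested were called. Past an unadjusted p of 0.05 were 2 of them (limma, 20.4% of all genes), Foxj1, which had entered through the MSC KO libraries, and Foxn2. The other 30 forkhead entries reached at most 0.973 FPKM in any library, and 12 were listed at 0 in all 4. In the authors' deposited tables, 18 forkhead rows were tested in each, and besides Foxp3 the authors called Foxb1 in the first table (q-value 0.0118), where it was listed at 0 FPKM in WT 1 and 0.632 in MSC KO 1; Foxb1 was picked out after its values were seen.

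Reads near Foxp3 were compared because genes at its locus overlap. In GENCODE M21 (GRCm38), Foxp3 lies on the plus strand of chromosome X at 7573644 to 7595245, with 4577 exon bases, of which 590 are shared with Ccdc22 and 266 with Ppp1r3f, both on the minus strand. The labels do not say that counting used strand, so reads of the overlapping parts cannot be told apart. Ccdc22, a trafficking protein gene, was at 14.7 and 13.6 FPKM in WT and 9.11 and 9.2 in MSC KO, and Ppp1r3f, a phosphatase regulatory subunit gene, was at 4.25 and 4.53 in WT and 1.58 and 2.41 in MSC KO. Their differences were -0.58 ± 0.09 (adjusted p = 0.15, limma) and -0.86 ± 0.15 (adjusted p = 0.153, limma), and both share the locus the tables list for Foxp3. Of the genes farther out, Syp, 33159 bp away, was at 1.1 and 1.21 FPKM in WT and 2.1 and 1.83 in MSC KO. Plp2 and Prickle3, both 53112 bp away, differed by -0.10 ± 0.08 and -0.03 ± 0.12, and Gpkow, 91713 bp away, by 0.12 ± 0.09, with adjusted p-values of 0.515 to 0.916 (limma).

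**Figure D4:**
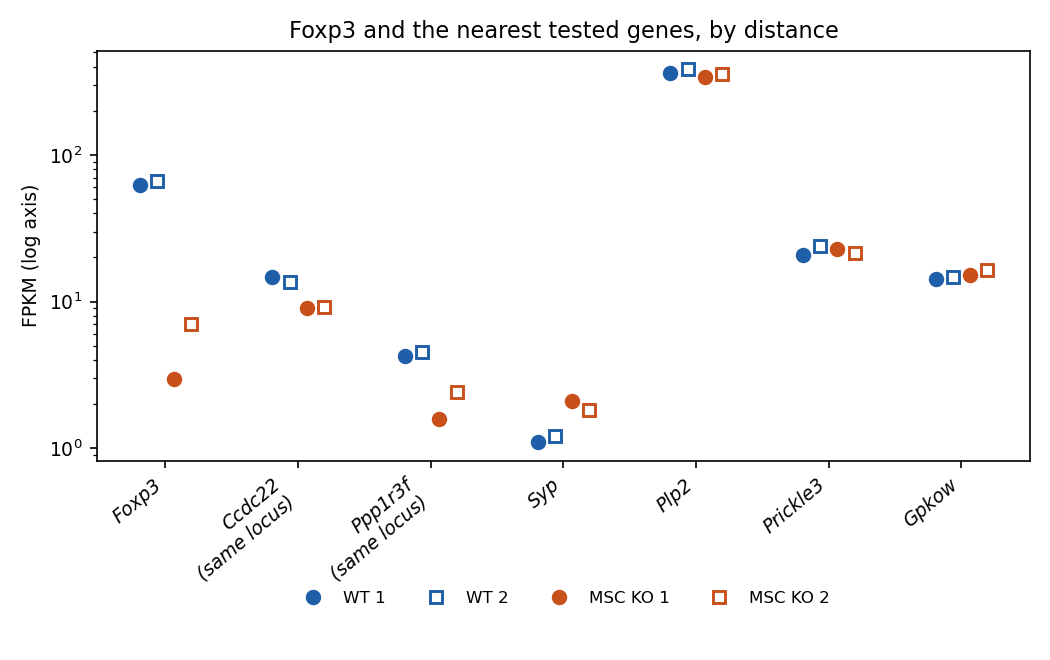
Level of Foxp3 and of the nearest tested genes, ordered by distance, in each library (FPKM, log axis), with WT in blue and MSC KO in orange, circles for the first table and squares for the second. Foxp3, Ccdc22 and Ppp1r3f, which share 1 listed locus, are lower in both MSC KO libraries, whereas Syp is higher and Plp2, Prickle3 and Gpkow lie close to their WT levels.

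The 5 genes closest to Foxp3 in their pair of table differences, by straight-line distance on the log2(FPKM + 1) scale over the 2 tables, were Ifi203 (0.649), Klf2 (0.686), Atp1b1 (0.784), Lcn6 (0.849) and Lcn10 (0.965). Ifi203, an interferon-inducible gene, was at 11.9 and 13.3 FPKM in WT and 0.204 and 1.09 in MSC KO. Atp1b1, a sodium pump subunit, was at 33.1 and 33.6 FPKM in WT and 1.15 and 6.17 in MSC KO. Lcn10, a lipocalin, was at 21.4 and 20.8 FPKM in WT and 0.278 and 4.09 in MSC KO, and Lcn6 was listed at 0 in MSC KO 1. With 2 tables, closeness rests on 2 values per gene.

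Genes that act on forkhead factors or answer to them were read from 6 lists. Of their genes, 0 were called at an adjusted p under 0.05 (limma), where 0.00945% of all genes tested were called, 1 of 10587. Of 32 tested inducers and cofactors of Foxp3, 4 were lower and 6 higher at an unadjusted p under 0.05 (limma), beside 11.2% lower and 9.21% higher over all genes, and the median difference was 0.02 beside -0.02 over all genes. The TGF-beta receptor gene Tgfbr1 was at 26.0 and 26.2 FPKM in WT and 12.9 and 10.3 in MSC KO, without overlap. Satb1, a chromatin organiser also counted below among the genes held down by Foxp3, was at 11.1 and 11.6 FPKM in WT and 94.7 and 38.1 in MSC KO. Irf4, a factor of T cell activation, was at 63.1 and 65.9 FPKM in WT and 166 and 160 in MSC KO. Both genes were higher without overlap. Tgfbr1, Satb1 and Irf4 were picked for large differences of the same sign in both tables. Of the 32, 9 had both MSC KO libraries below both WT libraries (32.5% of all genes) and 12 above them (26.6%). Nr4a1, a receptor induced by T cell receptor signals, was at 65.8 and 66.4 FPKM in WT and 105 and 102 in MSC KO, and Ezh2 and Kat5, chromatin enzymes that act with Foxp3, were near their WT levels, at 62.7 and 71.7 against 66.2 and 68.9 and at 20.8 and 21.2 against 20.4 and 22.3.

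The genes known to be raised by Foxp3 did not share a direction. Of the 21 tested, 8 were lower in both tables (37.5% of all genes), 8 higher in both (31.2%) and 5 of opposite sign. Their median difference was 0.11, beside -0.02 over all genes. At an unadjusted p under 0.05 (limma), 7 were lower (11.2% of all genes) and 5 higher (9.21%). Lrrc32, which holds latent TGF-beta at the cell surface, was at 23.9 and 26.0 FPKM in WT and 5.78 and 9.46 in MSC KO. Gpr15, a homing receptor, was at 7.33 and 8.15 FPKM in WT and 31.5 and 33.0 in MSC KO. Tigit, an inhibitory receptor, was at 8.06 and 7.77 FPKM in WT and 28.6 and 22.7 in MSC KO, and Socs2, a brake on cytokine signalling, at 81.0 and 86.5 in WT and 29.0 and 40.9 in MSC KO. These 4, picked for large differences of the same sign in both tables, did not overlap between the groups. Ikzf4 and Il2ra, picked for the smallest mean differences, overlapped. Ikzf4 was at 16.9 and 17.2 FPKM in WT and 12.6 and 18.0 in MSC KO, and Il2ra at 302 and 317 in WT and 364 and 307 in MSC KO. Of the 21, 8 had both MSC KO libraries below both WT libraries (32.5% of all genes) and 7 above them (26.6%). Nrp1, picked out after its values were seen, was at 6.46 and 6.8 FPKM in WT, whereas MSC KO 1 had 1.07 and MSC KO 2 had 172.

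Of the 18 genes known to be held down by Foxp3, 15 were higher in both tables, beside 31.2% of all genes, and 11 by at least 2-fold in both, beside 1.32%. The median difference was 2.0. Of these 18, 5 were below 1 FPKM in both WT libraries and passed the filter through the MSC KO libraries alone. Il17f, a cytokine of Th17 cells, was at 4.4 and 3.39 FPKM in WT and 198 and 334 in MSC KO, and Il13 at 1.43 and 2.06 in WT and 58.1 and 21.7 in MSC KO. Il2, the T cell growth factor, was at 4.24 and 4.29 FPKM in WT and 33.9 and 26.7 in MSC KO. Il3, a growth factor of myeloid cells, was at 5.11 and 5.79 FPKM in WT and 22.9 and 74.2 in MSC KO. Pde3b and Tnf had the smallest mean differences. Pde3b was at 8.76 and 8.55 FPKM in WT and 9.07 and 9.11 in MSC KO, whereas Tnf, at 28.1 and 29.3 in WT and 23.5 and 40.1 in MSC KO, was of opposite sign in the 2 tables. Ifng, picked out after its values were seen, was the one gene of the list lower in both tables, at 50 and 51.6 FPKM in WT and 33.7 and 42.1 in MSC KO.

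Targets of the FOXO factors went in both directions. Of the 25 tested, 9 were lower in both tables (37.5% of all genes), 10 higher in both (31.2%) and 6 of opposite sign. Their median difference was 0.02, beside -0.02 over all genes. At an unadjusted p under 0.05 (limma), 8 were lower (11.2% of all genes) and 4 higher (9.21%). By at least 2-fold in both tables, 3 were lower (0.812% of all genes) and 0 higher (1.32%). Klf2, a quiescence factor, was at 56.7 and 53.0 FPKM in WT and 4.76 and 5.24 in MSC KO. Sesn1, a stress response gene, was at 20.5 and 21.4 FPKM in WT and 5.24 and 8.92 in MSC KO, whereas S1pr1, the lymph node egress receptor, was at 19.5 and 21.1 in WT and 22.2 and 18.3 in MSC KO. Bcl2l11, which promotes cell death, was at 2.97 and 3.52 FPKM in WT and 1.32 and 1.06 in MSC KO. Tcf7, a stem-like T cell factor, was at 97.0 and 98.5 FPKM in WT and 107 and 91.5 in MSC KO.

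Of the 25 genes that control FOXO factors, 15 were lower in both tables (37.5% of all genes) and 4 higher in both (31.2%). Their median difference was -0.15, beside -0.02 over all genes. At an unadjusted p under 0.05 (limma), 5 were lower (11.2% of all genes) and 0 higher (9.21%). The kinase Sgk1, which phosphorylates FOXO proteins, was at 29.4 FPKM in each WT library and 10.5 in each MSC KO library. Sgk3 was at 3.49 and 2.89 FPKM in WT and 1.14 and 1.71 in MSC KO, and the ubiquitin ligase subunit Skp2 at 6.28 and 6.56 in WT and 4.74 and 4.96 in MSC KO. These 3 genes, picked for large differences of the same sign in both tables, did not overlap between the groups. Of the 25, 14 had both MSC KO libraries below both WT libraries (32.5% of all genes) and 2 above them (26.6%). Ikbkb was at 19.1 and 18.6 FPKM in WT and 17.5 and 19.7 in MSC KO. Akt1 was at 83.3 and 88.6 FPKM in WT and 92.8 and 81.4 in MSC KO. Akt1 and Ikbkb, picked for the smallest mean differences, overlapped between the groups.

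Most of the Foxm1 target list was slightly lower in MSC KO, between -0.48 and 0.03 on the log2(FPKM + 1) scale. Of its 28 genes, 24 were lower in both tables (37.5% of all genes) and 0 were higher in both (31.2%). Lower at an unadjusted p under 0.05 were 16 (limma, 11.2% of all genes), and the median difference was -0.31. The mitotic cyclin Ccnb2 was at 135 FPKM in each WT library and 96.2 and 96.3 in MSC KO, and the cytokinesis factor Ect2 at 22.1 in each WT library and 15.8 and 16.5 in MSC KO. Aurkb, a mitotic kinase, was at 84.7 and 89.3 FPKM in WT and 64.8 and 67.8 in MSC KO. Top2a, which untangles DNA before division, was at 143 and 152 FPKM in WT and 100 and 117 in MSC KO. Cenpe and Cdc25c, picked for the smallest mean differences, overlapped between the groups. Cenpe was at 8.4 and 8.84 FPKM in WT and 7.11 and 10 in MSC KO, and Cdc25c at 13.0 and 13.8 in WT and 12.7 and 14.7 in MSC KO. The lists share some genes, 3 between the inducers and the activated genes and 1 between several others, so their counts are not independent.

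**Figure D5:**
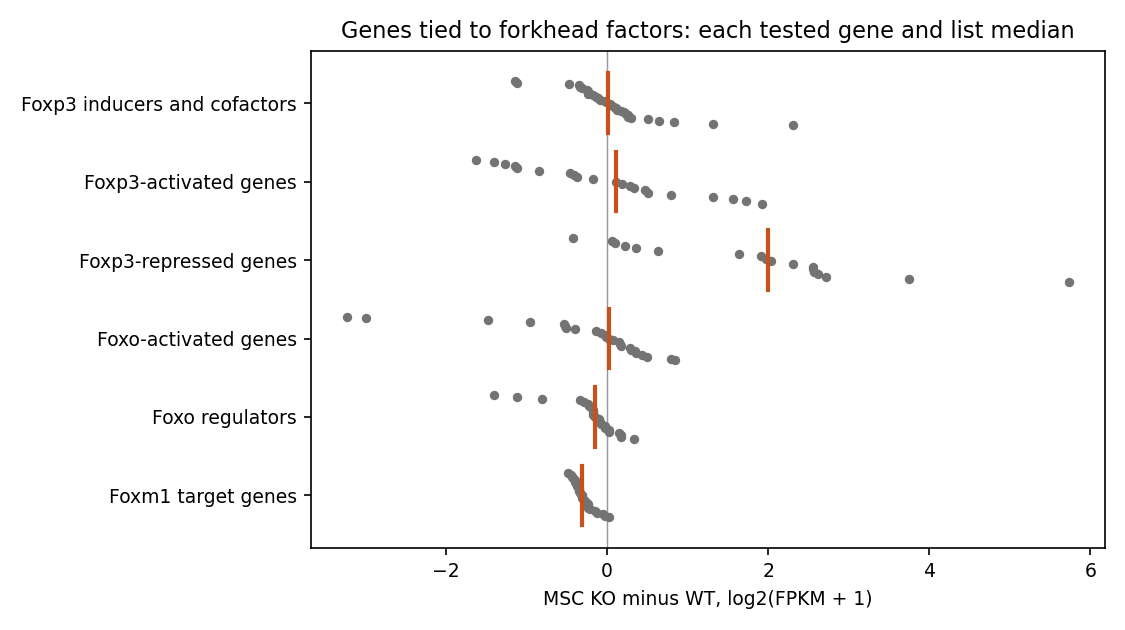
Mean difference of each tested gene of the 6 lists (grey points), MSC KO minus WT on the log2(FPKM + 1) scale, with the list median (orange bar). The Foxp3-repressed genes have a median of 2.0, and the Foxm1 target genes cluster around -0.31.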

How the data were processed

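RNA-seq of 2 WT and 2 MSC KO iTreg libraries was analysed. Reads were aligned to mm9 with TopHat, per the submitters' processing notes; versions, annotation and use of strand were not given in the sources used here. No unit is named for the deposited values, which were taken to be FPKM from their layout and range. The authors' own p-value and q-value stand next to them. Depth, about 25500000 to 35700000 fragments, was estimated from the smallest steps of low values.

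Rows with no symbol (1925 and 2325) were left out, and of repeated symbols the row of highest mean was kept. Values were compared as log2(FPKM + 1), at a mean of at least 1 FPKM, by limma 3.58.1 (R 4.3.3), two-sided, with the table as a block, a trended prior (2.352 degrees of freedom, residual 1) and Benjamini-Hochberg adjustment at 0.05. The fit was first tested on simulated data, where it called 2% of planted 2-fold and 86% of planted 4-fold changes. A lack of calls thus says little about differences of 2-fold or less. Deviations of same-numbered libraries correlated at 0.0589. The 13 alternatives are in the closing section, and those with 1 library left out had no table block.

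Members and lists were chosen with earlier results of these data known. Named were all members, other forkhead genes past the filter, tested genes within 250 kb of Foxp3, the 5 nearest patterns, and, from each list, up to 4 genes of the same sign in both tables whose smaller table difference was largest and 2 with the smallest mean difference; some of these are not reported here.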

Additional observations from a re-analysis of the deposited data

How the results depend on the processing

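Over the 9 alternatives that keep all 4 libraries, the counts of members lower in both tables (6) and higher in both (1) did not change. Only the same-sum rescaling, the quantile normalization and the sum of the rows of a symbol could have changed a member's sign. The other settings leave these signs as they are by construction, so they do not test the counts. Genes called over all genes numbered 1 in the fit as reported, 7 after rescaling each library to the same sum, 3 at a mean of at least 5 FPKM, 26 without small RNA symbols, and 0 with no filter, without a trended prior or with quantile normalization. Without the replicate block 153 genes were called, 1 of them a member, Foxp3; no paired source of same-numbered libraries is given, so the block stands only for the shared table. Leaving out 1 library, which assumes that the lone library varies like the other group, gave 0 to 2665 genes and 0 to 5 of the 8 members with a row of their own. Dropping WT 1 gave 0 genes, dropping WT 2 gave 3, dropping MSC KO 1 gave 2286 and dropping MSC KO 2 gave 2665. The Foxo4 difference ran from -0.27 to 0.00 over these. Foxk2 turned sign, to -0.04 at the same sum, -0.00 at a pseudocount of 0.1 and -0.09 to 0.09 with 1 library left out. No setting moved the median of all genes by over 0.1. Of 672 values with no test, 55 moved by more than the spread between replicates. The 672 include settings of the block, the prior and the filter, which leave a gene's difference unchanged by construction. The median of the Foxp3 inducers turned to -0.02 at the same sum, and that of the Foxp3-activated genes to -0.03 with no filter. The cause was not tested. Depth was estimated rather than given, and its part in the precision was not tested.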
